A study of Drosophila melanogaster with 4 samples.

Results

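Neuropeptide and peptide hormone genes encode precursors that are cut into short secreted peptides. The genes described here are 35 of the 17772 genes in the deposited matrices, taken by their locus tags in all 4 libraries. They are a chosen list of fly peptide precursors, not a complete one, and Orcokinin, SIFa, Pdf and Ms were left out of it. The study asked how chronic arsenic exposure changes transcription in the *Drosophila* brain, cell by cell. The 4 groups were NaAsO2 females, control females, NaAsO2 males and control males. All were Canton S (B) flies, abbreviated CSB, aged 3 to 5 days when exposure began, and they stayed for 6 days on food with 250 µM NaAsO2 or on food without it. Each group gave 1 library of nuclei from 10 pooled brains, so the spread between flies was not measured and no p-value is given.

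The unit of the data is the unique molecular identifier (UMI), a tag that marks each captured transcript molecule. The libraries held between 10000 and 25332 nuclei and between 33235404 and 53360256 UMIs, and the members took between 0.194% and 0.459% of them. Sums per library are given as UMIs per 1000000 UMIs of that library (CPM), ratios are log2 ratios followed by their interval, and the intervals are exact at 95% and cover counting error only. Between 45 and 135 nuclear barcodes were shared by any pair of libraries, at most 0.75% of either. The male NaAsO2 library stood apart from the others. It held exactly 10000 nuclei, its lowest nucleus had 1766 UMIs where the other libraries went down to 500, and 1196 of its nuclei fell in a cluster of unresolved type that took 226 to 417 nuclei of each other library. All 6 neuronal markers were present in every library, with none at 0 and a summed level of 13898.3 CPM in NaAsO2 females, 15475.1 CPM in control females, 15428.7 CPM in NaAsO2 males and 11775.5 CPM in control males.

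Neuropeptides are packed into dense-core vesicles after the precursor has been cleaved and, in many cases, amidated, and they act on G protein-coupled receptors over longer distances and times than fast transmitters. In the fly brain many are made by small, stereotyped sets of neurosecretory cells or interneurons, where they govern feeding, water balance, sleep, growth and mating. Insulin-like peptides act instead on a receptor tyrosine kinase and link nutrition to growth and lifespan.

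The most abundant member was *sNPF* (Dmel_CG13968, chr2L:20027915-20056373 of the release 6 genome), the short neuropeptide F precursor of many interneurons and of mushroom body Kenyon cells, with 32980 UMIs in NaAsO2 females, 36275 in control females, 15961 in NaAsO2 males and 23866 in control males. It was followed by *AstC*, *Dh31*, *Ilp2*, *Nplp1*, *Capa*, *Hug* and *Dsk*, each with between 27080 and 39214 UMIs over the 4 libraries. At the other end, *Burs* and *Pburs*, the subunits of the cuticle-tanning hormone bursicon that acts at adult emergence, had 1 and 3 UMIs over all 4 libraries. *RYa*, *CNMa* and *Akh*, whose adipokinetic hormone comes from the corpora cardiaca outside the brain, had 117, 167 and 243 UMIs. The plot of levels by library shows that the male NaAsO2 library held the lowest level of many members.

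**Figure D1:**
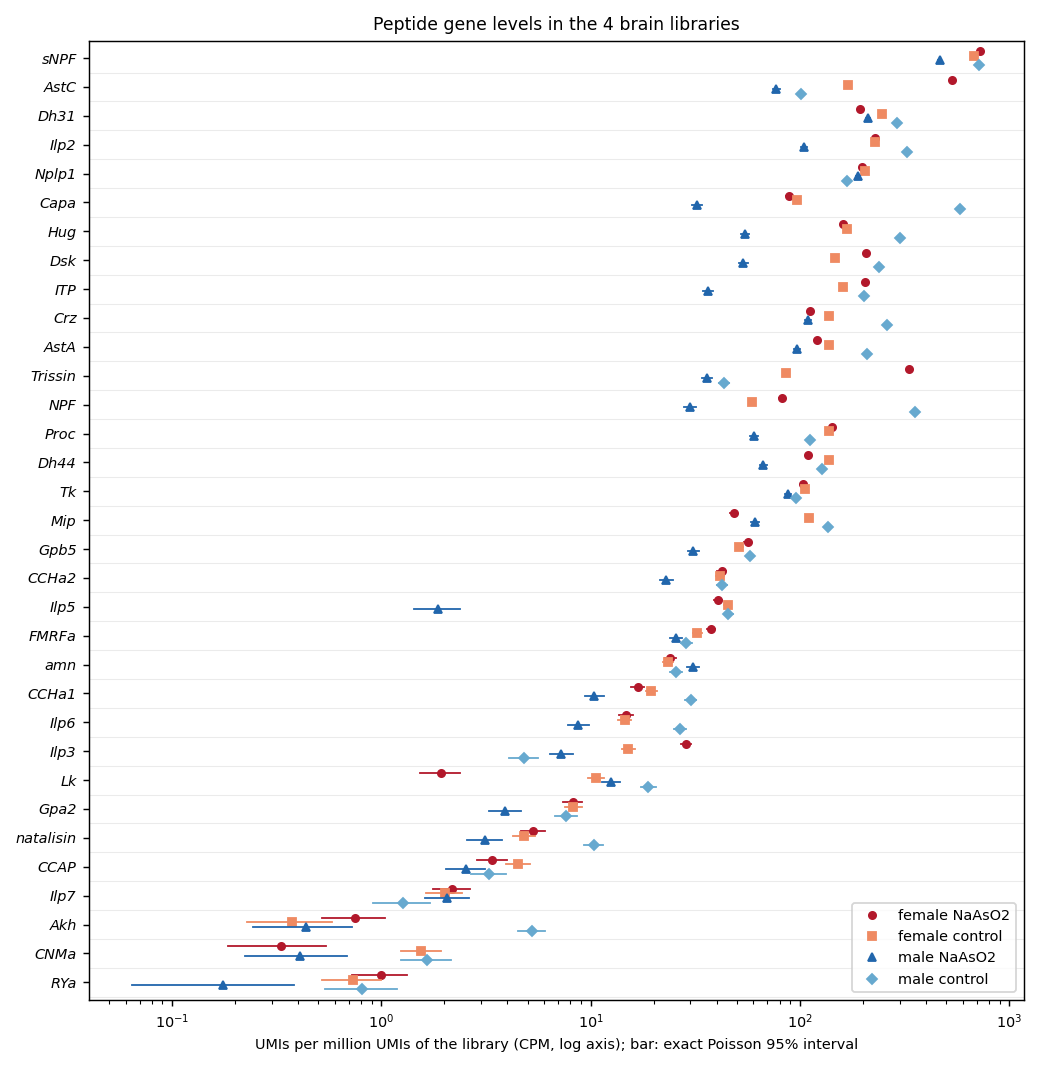
CPM of each member (log axis) in the 4 libraries, with exact Poisson 95% intervals, which cover counting error only. *sNPF* is highest in every library, from 465 to 727 CPM, and *Trissin* and *AstC* stand out in NaAsO2 females.

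The members differed in how their transcripts were spread over nuclei. For *Capa*, *Hug*, *Trissin*, *Ilp2*, *NPF*, *AstA* and *AstC*, between 80.3% and 88.6% of the UMIs lay in nuclei with at least 10 UMIs of that gene, and these were only 53 (*Trissin*) to 416 (*AstA*) of the 69415 nuclei. *Nplp1*, *Gpb5*, *Tk* and *Ilp6* were spread thinly instead, with 5.24% to 14.95% of their UMIs in such nuclei. *amn* (amnesiac, a memory gene) and *Ilp7* never reached 10 UMIs in a nucleus. Single nuclei weighed heavily on some sums: 1 male control nucleus with 8239 *Capa* UMIs held 27.7% of all *Capa* UMIs, 1 female NaAsO2 nucleus with 5581 *Trissin* UMIs held 25.0%, and 1 male control nucleus with 142 *Akh* UMIs held 58.4%.

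Single UMIs of the concentrated members were about as frequent in glia-like as in neuron-like nuclei. After every nucleus was thinned to 1000 UMIs, which left out shallower nuclei, at least 1 *Ilp2* UMI was found in 3.29% of neuron-like and 3.83% of glia-like nuclei, and at least 1 *Capa* UMI in 1.94% and 2.37%. Single UMIs of these genes are therefore not counted as production here, and where they came from was not tested. The broad *Nplp1* was found in 15.6% of neuron-like and 9.79% of glia-like nuclei, and *Ilp6* and *ITP* were the members with a higher share in glia-like nuclei by far. *Ilp6*, an insulin-like peptide known from fat body and surface glia, was found in 0.312% of neuron-like and 5.16% of glia-like nuclei, and 68.4% of its UMIs lay in glia-like clusters, with 60.4 CPM there against 3.71 CPM in neuron-like and 109 CPM in fat body-like clusters. *ITP*, the ion transport peptide, was found in 2.98% of neuron-like and 13.2% of glia-like nuclei and reached 326 CPM in glia-like against 120.2 CPM in neuron-like clusters. The *ITP* excess in glia-like clusters depended on the clustering. They held 37.6% of its UMIs here, 27.7% at resolution 2 and 17.2% with 30 principal components in place of 10. With 30 components, glia-like clusters held 16.1% of all UMIs. Neuron-like clusters then held 79.5% of the *ITP* UMIs and 75.9% of all UMIs. In the nuclei with at least 10 *ITP* UMIs, the glial marker *repo* was higher than in nuclei without *ITP* (log2 ratio 1.80, 1.45 to 2.12).

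To count nuclei with more than single UMIs, a nucleus is called rich in a peptide when at least 3 of its 1000 thinned UMIs came from that gene. Rich nuclei were not confined to neuron-like clusters. Per 10000 neuron-like and glia-like nuclei they numbered 23.5 and 30.9 for *Ilp2* and 10.6 and 11.7 for *Trissin*. For *Dh31* they numbered 279.8 and 98.1, and for *Crz* 67.8 and 14.9. Whether rich nuclei produce the peptide was not tested. Over the 4 libraries, neuron-like clusters held 69.3% of the members' UMIs, glia-like clusters 12.3% and unresolved clusters 15.8%. The same clusters held 72.2%, 17.9% and 6.76% of all UMIs, so the members were not concentrated in neuron-like clusters in this setting. With more principal components in the clustering (30 in place of 10, a setting used after the data were seen), neuron-like clusters held 85.7% of the members' UMIs and 75.9% of all UMIs. One cluster of 2061 nuclei in that setting, called peptidergic-like because 5 of 6 markers of neurosecretory cells (*dimm*, *Phm*, *amon*, *Pal2*, *7B2* and *IA-2*) were raised in it, held 78.3% of the *Trissin*, 74.2% of the *Capa*, 73.3% of the *Hug*, 66.9% of the *AstC* and 66.4% of the *Ilp2* UMIs, although no member was used in the clustering. It held only 4.795% of the *Tk*, 4.99% of the *Proc* and 7.33% of the *sNPF* UMIs. *dimm*, the transcription factor of neurosecretory cells, followed the same division as measured in single nuclei. Its level was 326 CPM in nuclei with at least 10 *Trissin* UMIs against 4.13 CPM in nuclei without (log2 ratio 6.30, 5.87 to 6.70), and it was also higher in *Ilp3*, *Ilp5*, *Gpa2*, *Ilp2*, *Hug* and *Capa* nuclei by 4.66 to 5.91 on the log2 scale. In *Tk* nuclei it stood at 1.67 CPM against 4.60 CPM (-1.47, -3.35 to -0.10). *Capa* nuclei also carried more *Vmat*, the vesicular monoamine transporter (3.01, 2.93 to 3.09).

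Pairs of peptides occurred in the same nuclei. All 28 *Ilp3*-rich and all 55 *Ilp5*-rich nuclei were *Ilp2*-rich too, and they made up 19.2% and 37.7% of the 146 *Ilp2*-rich nuclei. These genes lie near each other on chromosome 3L and encode the insulin-like peptides of the median neurosecretory cells. Of 66 *Trissin*-rich nuclei, 45 (68.2%) were rich in *AstC*, the somatostatin-like allatostatin C precursor, but these were only 9.74% of the 462 *AstC*-rich nuclei. *Gpa2* and *Gpb5*, the 2 subunits of a glycoprotein hormone, shared 18 nuclei, which were 46.2% of the *Gpa2*-rich and 60.0% of the *Gpb5*-rich nuclei. *AstA* was found in 62 of 198 *NPF*-rich nuclei (31.3%; 13.5% of the *AstA*-rich ones). Each count pools the 4 libraries, and a pair of cells in 1 droplet would count as an overlap, which was not tested for single nuclei.

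**Figure D2:**
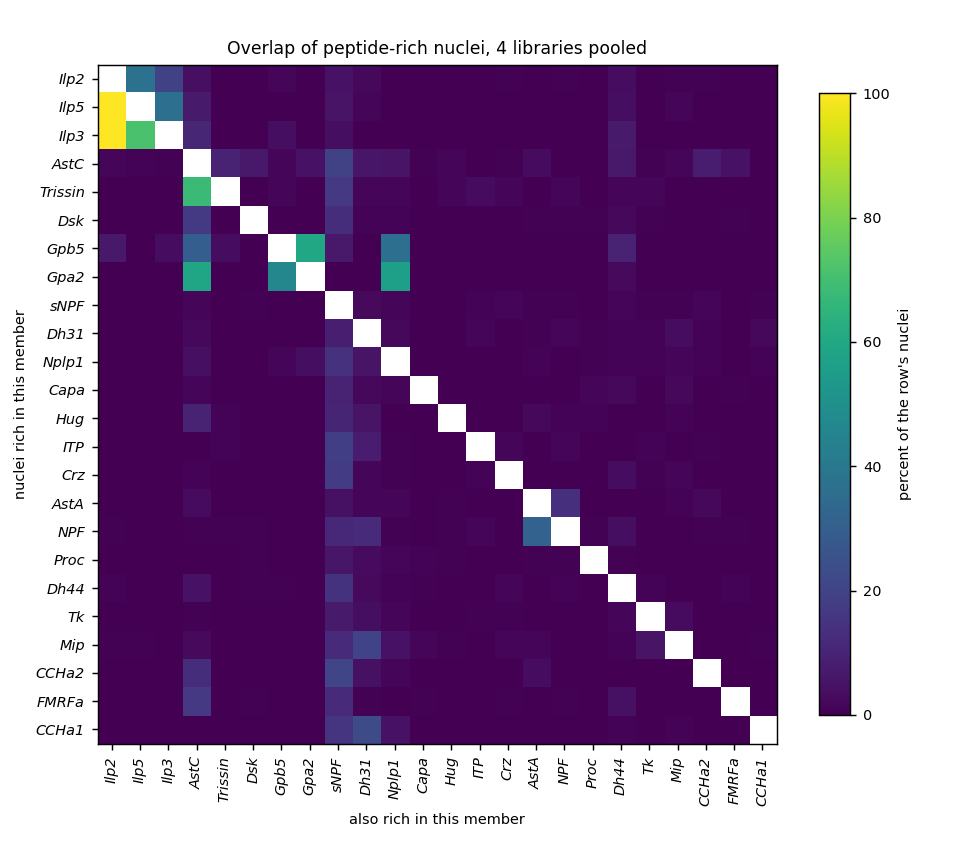
Share of the nuclei rich in the row's member (at least 3 of 1000 thinned UMIs) that were also rich in the column's member, 4 libraries pooled, for members with at least 20 rich nuclei. The bright cells are the *Ilp2*, *Ilp3* and *Ilp5* block (up to 100%), *Trissin* with *AstC* (68.2%), and *Gpa2* and *Gpb5* with each other, with *AstC* and with *Nplp1*.

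The first comparison asked which peptide genes differed after NaAsO2 exposure in females. A member counts as higher or lower where its CPM differed at least 1.5-fold with at least 100 UMIs over both libraries, and 30 members had that many. In NaAsO2 females, *AstC*, *Trissin* and *Ilp3* were higher (3 of 30, where 4.89% of all 8930 genes were) and *Mip* and *Lk* were lower (2 of 30, where 0.717% were). The other 25 lay between, and the median log2 ratio over the members was 0.02, against 0.08 over all genes. Without scaling for depth (mean UMIs per nucleus), 2 members were higher and 19 lower, where 1.29% and 42.3% of all genes were, as the median of all genes moved to -0.55. In these sums, fewer nuclei of a type and less RNA per nucleus cannot be told apart.

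In males the same comparison gave more differences. Of 31 members, 21 were lower in NaAsO2 males, where 22.8% of all 8583 genes were, and *Ilp3* and *Ilp7* were higher (2 of 31, where 2.82% were). The median log2 ratio was -0.93 over the members and -0.22 over all genes. By call in both sexes, 18 members were lower in males and neither higher nor lower in females, *Mip* and *Lk* were lower in both sexes, and *Ilp3* was higher in both. The share of all genes with each of these patterns was not counted. Since 22.8% of all genes were lower in males and 0.717% in females, a lower call in males alone was common among all genes. *Dh31*, *Nplp1*, *Tk*, *FMRFa*, *amn* and *CCAP* stayed within 1.5-fold in both. Without scaling for depth, 4 members were higher and 12 lower in NaAsO2 males, where 33.8% and 4.09% of all genes were, with the median of all genes at 0.40. The lower calls of *sNPF*, *AstA*, *Mip*, *Dh44*, *CCHa2*, *Lk*, *Proc*, *Gpa2* and *Gpb5* were lost. Counted with at most 10 UMIs of a gene per nucleus, an alternative added after the data were seen, 4 were higher and 12 lower. Of all genes, 2.796% were higher and 22.25% lower in that setting. There the lower calls of *sNPF*, *AstA*, *Mip*, *Crz*, *Dsk*, *Hug*, *Ilp2*, *Lk* and *Proc* were lost. The libraries also differed in their makeup: the summed glial markers stood at 343.8 CPM in NaAsO2 males and 482.2 CPM in control males (6 of 6 present in both, none at 0), and the fat body markers at 889.7 CPM in NaAsO2 males and 2474.3 CPM in control males (7 of 7 present in both, none at 0). Their part in these ratios was not tested. Neuronal markers went the other way, with the higher sum in NaAsO2 males.

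**Figure D3:**
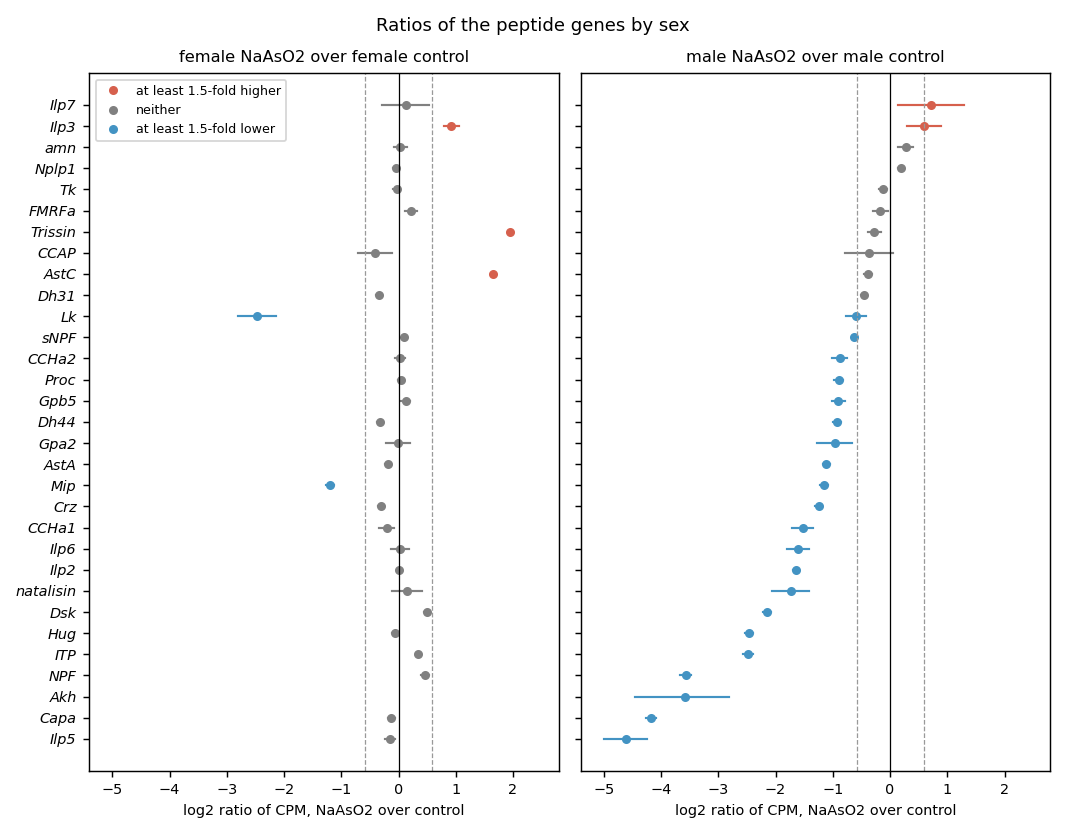
log2 ratio of CPM, NaAsO2 over control, of each member in females (left) and males (right), with exact 95% counting intervals and dashed lines at 1.5-fold (red: higher, blue: lower, grey: neither). In females most points lie near 0, with *Trissin* (1.95) and *AstC* (1.64) to the right and *Lk* (-2.47) and *Mip* (-1.20) to the left, and in males 21 of 31 lie below the lower line.

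*AstC* and *Trissin*, which shared nuclei, were the members furthest above control in NaAsO2 females. *AstC* (Dmel_CG14919, chr2L:11076165-11081399) stood at 532 CPM in the female NaAsO2 library and 170.3 CPM in the female control (log2 ratio 1.64, 1.61 to 1.68), and at 77.3 CPM in the male NaAsO2 library and 101 CPM in the male control (-0.39, -0.46 to -0.31). *Trissin* (Dmel_CG14871, chr3R:15484730-15485396), a small cysteine-rich signalling peptide, stood at 333 CPM in the female NaAsO2 library and 85.9 CPM in the female control (1.95, 1.91 to 2.0), and at 35.9 CPM in the male NaAsO2 library and 43.5 CPM in the male control (-0.28, -0.39 to -0.17). The male libraries were within 1.5-fold of each other for both genes, but 1 male NaAsO2 nucleus held 662 of the 1231 *Trissin* UMIs, and without the highest nucleus of each library the male ratios were -0.66 for *AstC* and -1.11 for *Trissin*, both past 1.5-fold lower. For both genes the share of rich nuclei was close in the 2 female libraries, at 81.3 per 10000 in NaAsO2 females and 79.0 in control females for *AstC* (log2 ratio 0.04, -0.30 to 0.39), and at 13.1 and 11.4 for *Trissin* (0.19, -0.72 to 1.13). Rich nuclei were thus about as frequent in both female libraries, within wide intervals for *Trissin*. The nuclei with the most UMIs differed, with 6002 *AstC* UMIs in the highest NaAsO2 nucleus and 2784 in the highest control nucleus, and 5581 and 2269 *Trissin* UMIs. Without the nucleus with the most UMIs of each gene in each library the female ratios were 1.76 and 2.27. Without the unresolved cluster, however, they dropped to 0.47 for *AstC* and 0.28 for *Trissin*, and neither was past 1.5-fold. Neuron-like clusters held only 41.7% of the *AstC* and 27.5% of the *Trissin* UMIs, but 92.7% and 94.5% with 30 components. Both female calls were kept in the neuron-like clusters of either clustering. In the peptidergic-like cluster the female ratios were 2.64 for *AstC* and 2.70 for *Trissin*. Over the 4 libraries both genes also stood high in fat body-like clusters, at 1478.5 CPM for *AstC* and 1174.8 CPM for *Trissin*, against 136.1 and 51.2 CPM in neuron-like clusters. Fat body-like clusters held 7.35% of the *AstC* and 10.2% of the *Trissin* UMIs, but 0.140% and 0.0626% in the 30-component clustering. How many nuclei these fat body-like values rest on was not examined, so they are not read as expression in fat body. The highest female control nucleus alone held 2784 *AstC* UMIs, and for *Trissin* it held 2269, and its cluster was not looked up. With 10 components, 6756 member UMIs in fat body-like clusters came from control females and 647 from NaAsO2 females. The summed fat body markers went the other way, at 1065.3 CPM in NaAsO2 females and 715.5 CPM in control females (7 of 7 present in both, none at 0). The part of fat body-like nuclei in the female ratios was not tested.

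*Mip* and *Lk* were lower in NaAsO2 brains of both sexes, *Lk* in males under some settings only. *Mip* (Dmel_CG6456, chr3L:17344947-17349666), the precursor of the myoinhibitory peptides, also called allatostatin B, stood at 48.2 CPM in the female NaAsO2 library and 111 CPM in the female control (-1.20, -1.27 to -1.13), and at 61.2 CPM in the male NaAsO2 library and 136 CPM in the male control (-1.16, -1.23 to -1.08). Nuclei rich in *Mip* were fewer in NaAsO2 brains as well, at 23.5 per 10000 in NaAsO2 females and 38.9 in control females, and 36 in NaAsO2 males and 64.9 in control males. Over all thinned nuclei, *Mip* is thus the only member with a lower CPM and fewer rich nuclei, beyond the counting interval, in both sexes. Among female nuclei at least as deep as the lowest male NaAsO2 nucleus, the *Mip* interval for rich nuclei was not below 0. Its female call was lost without the 5% of nuclei with the most UMIs (-0.56), with nuclei scaled to 1 total (-0.52) and with at most 10 UMIs per nucleus (-0.46). *Lk* (Dmel_CG13480, chr3L:14560139-14560764), the leucokinin precursor known for water balance, came from few nuclei: it had 87 UMIs in NaAsO2 females and 567 in control females (-2.47, -2.81 to -2.14), and 430 UMIs in NaAsO2 males and 628 in control males (-0.59, -0.77 to -0.41). At least 10 *Lk* UMIs were found in 1 nucleus of NaAsO2 females and 4 nuclei of control females, and in 2 of NaAsO2 males and 5 of control males. The male call of *Lk* was fragile. It was lost without the highest nucleus of each library (-0.33), centred on the median gene (-0.37), with nuclei scaled to 1 total (-0.0767) and in neuron-like clusters of 30 components (-0.16), and the direction turned in neuron-like clusters (0.0665), without scaling for depth (0.0284) and with at most 10 UMIs per nucleus (1.11).

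Among the insulin-like genes, *Ilp5* had the largest deficit of any called member in NaAsO2 males. *Ilp5* (Dmel_CG33273, chr3L:9823349-9823897) had 64 UMIs in NaAsO2 males and 1513 in control males (log2 ratio -4.61, -4.99 to -4.25), and 1844 in NaAsO2 females and 2410 in control females (-0.15, -0.24 to -0.06). The female libraries were within 1.5-fold of each other for *Ilp5*. *Ilp2* (Dmel_CG8167, chr3L:9799698-9800440) stood at 104 CPM in the male NaAsO2 library and 326 CPM in the male control (-1.64, -1.70 to -1.59), and at 229.9 CPM in the female NaAsO2 library and 228 CPM in the female control (0.01, -0.03 to 0.05). The female value of *Ilp2* rested on 1 NaAsO2 nucleus with 4861 UMIs, and without the highest nucleus of each library it was -0.59. *Ilp3* (Dmel_CG14167, chr3L:9801298-9802120) went the other way, with 249 UMIs in NaAsO2 males and 160 in control males (0.59, 0.30 to 0.89), and 1303 in NaAsO2 females and 809 in control females (0.92, 0.79 to 1.05). Neither *Ilp3* call held under all settings. The male value was -0.03 without the highest nucleus of each library, and the female value was -0.60 without the unresolved cluster.

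*Ilp6* (Dmel_CG14049, chrX:2331493-2334658), the glial and fat body form, stood at 8.75 CPM in the male NaAsO2 library and 26.7 CPM in the male control (-1.61, -1.80 to -1.42), and at 14.8 CPM in the female NaAsO2 library and 14.6 CPM in the female control (0.03, -0.12 to 0.18), beside the lower fat body markers of NaAsO2 males given above. *Ilp7* (Dmel_CG13317, chrX:3667621-3668845), known from neurons of the ventral nerve cord, was near the limit of detection, with 71 UMIs in NaAsO2 males and 42 in control males (0.71, 0.14 to 1.30), and 99 in NaAsO2 females and 107 in control females (0.12, -0.29 to 0.53). No nucleus held more than 2 *Ilp7* UMIs, so no producing nuclei could be told apart from nuclei with single UMIs.

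The insulin genes were then compared within the nuclei that held many *Ilp2* UMIs. At least 10 *Ilp2* UMIs were found in 26 nuclei of NaAsO2 females, 38 of control females, 10 of NaAsO2 males and 45 of control males. In these nuclei *Ilp5* UMIs came to 0.878% of *Ilp2* UMIs in NaAsO2 males (22 over 2507) and 13.3% in control males (1340 over 10061), and to 16.6% in NaAsO2 females (1431 over 8597) and 19.0% in control females (1930 over 10171). So *Ilp5* was low relative to *Ilp2* in the same nuclei of NaAsO2 males. None of the 10 NaAsO2 male nuclei had 10 or more *Ilp5* UMIs, the highest had 9, and the nucleus with the most *Ilp2* (1614 UMIs) had 113 *Ilp3* and 0 *Ilp5* UMIs, whereas 23 of the 45 control male nuclei had at least 10. *Ilp3* came to 7.26% of *Ilp2* in NaAsO2 males and 1.27% in control males, and to 12.8% in NaAsO2 females and 6.65% in control females. With 10 nuclei from 1 library, the spread of these ratios between flies was not measured.

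**Figure D4:**
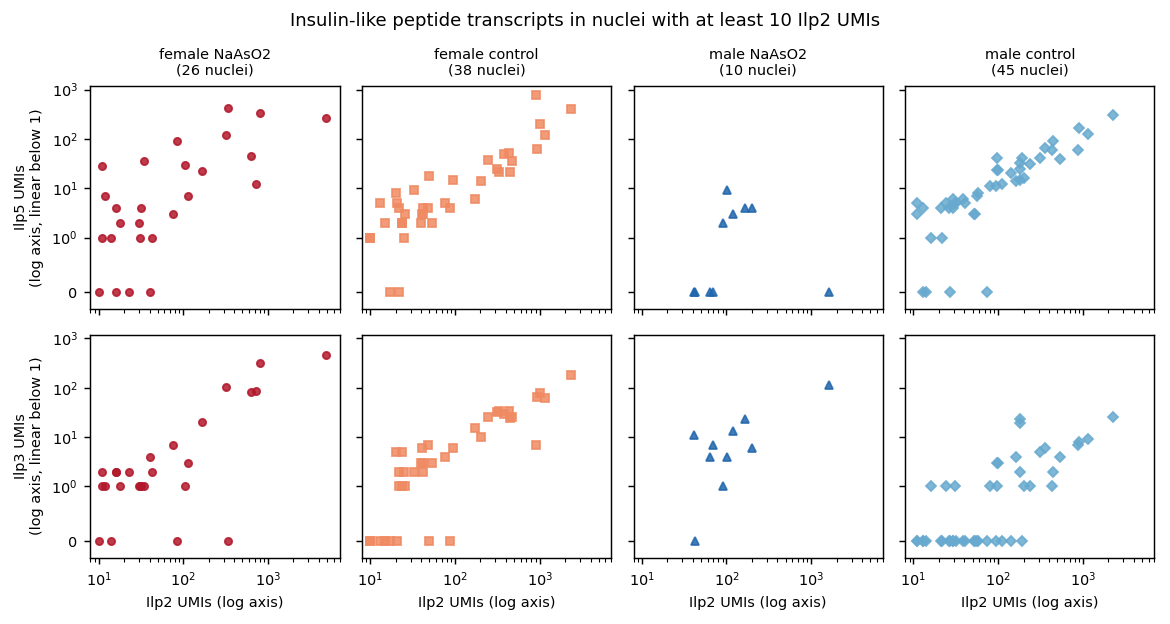
*Ilp5* (top) and *Ilp3* (bottom) UMIs against *Ilp2* UMIs in each nucleus with at least 10 *Ilp2* UMIs, by library (log axes, linear below 1 on the vertical axis). In the 10 male NaAsO2 nuclei *Ilp5* does not exceed 9 UMIs, while 23 of 45 male control nuclei have 10 or more.

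*NPF*, *sNPF*, *Dsk* and *AstA*, which are all known for roles in feeding among others, were lower in NaAsO2 males. *NPF* (Dmel_CG10342, chr3R:16609220-16611325), the fly relative of neuropeptide Y, stood at 29.9 CPM in the male NaAsO2 library and 355 CPM in the male control (-3.57, -3.67 to -3.48), and at 81.8 CPM in the female NaAsO2 library and 59.3 CPM in the female control (0.47, 0.40 to 0.53). Its rich nuclei numbered 16 per 10000 in NaAsO2 males and 64.1 in control males. *NPF* in females stayed under 1.5-fold, in the opposite direction. *sNPF* stood at 465 CPM in the male NaAsO2 library and 718 CPM in the male control (-0.63, -0.65 to -0.60), and at 727 CPM in the female NaAsO2 library and 679.8 CPM in the female control (0.10, 0.08 to 0.12). Its male value lay close to the threshold, and the call was lost centred on the median gene (-0.41), with nuclei scaled to 1 total (-0.58), with at most 10 UMIs per nucleus (-0.47) and without scaling for depth (-0.0056). In the Kenyon-like cluster of the 30-component clustering, where all 13 Kenyon cell markers were raised, *sNPF* reached 1338.2 CPM in NaAsO2 males and 2148.4 CPM in control males (-0.68, -0.76 to -0.60), and 2675.2 CPM in NaAsO2 females and 2237.6 CPM in control females (0.26, 0.21 to 0.31). The 2 sexes thus lay on opposite sides of control within 1 cell class, the female ratio under 1.5-fold. *Dsk* (Dmel_CG18090, chr3R:4189692-4190260), the cholecystokinin-like satiety peptide of insulin-producing and other cells, stood at 53.7 CPM in the male NaAsO2 library and 239 CPM in the male control (-2.15, -2.22 to -2.08), and at 208 CPM in the female NaAsO2 library and 148 CPM in the female control (0.49, 0.45 to 0.53). *AstA* (Dmel_CG13633, chr3R:24760530-24765071), allatostatin A, which curbs feeding and promotes sleep, stood at 96.9 CPM in the male NaAsO2 library and 209.8 CPM in the male control (-1.11, -1.17 to -1.05), and at 121 CPM in the female NaAsO2 library and 138 CPM in the female control (-0.19, -0.24 to -0.14).

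*Hug*, *Capa*, *CCHa1* and *CCHa2* were lower in NaAsO2 males as well. *Hug* (Dmel_CG6371, chr3R:12526188-12529076), the hugin pyrokinin of feeding circuits, stood at 54.8 CPM in the male NaAsO2 library and 302 CPM in the male control (-2.46, -2.53 to -2.39), and at 161 CPM in the female NaAsO2 library and 168 CPM in the female control (-0.06, -0.11 to -0.02). The deficit lay in nuclei with at least 10 *Hug* UMIs, which gave 26.3 CPM in NaAsO2 males and 289.9 CPM in control males. The remaining nuclei gave 28.6 CPM in NaAsO2 males and 12.2 CPM in control males, the opposite direction. *Capa* (Dmel_CG15520, chr3R:29912991-29914346), whose peptides act on the renal tubules, stood at 32.3 CPM in the male NaAsO2 library and 585 CPM in the male control (-4.18, -4.27 to -4.09), and at 89 CPM in the female NaAsO2 library and 97.1 CPM in the female control (-0.13, -0.19 to -0.07). The male control sum of *Capa* included the nucleus with 8239 UMIs, and without the highest nucleus of each library the male ratio was -3.55. *Capa* therefore remained far lower in NaAsO2 males whether or not that nucleus was counted. *CCHa1* (Dmel_CG14358, chr3R:14092504-14096835), a peptide of gut and brain, stood at 10.4 CPM in the male NaAsO2 library and 30.1 CPM in the male control (-1.53, -1.70 to -1.35), and at 16.8 CPM in the female NaAsO2 library and 19.5 CPM in the female control (-0.21, -0.35 to -0.07). *CCHa2* (Dmel_CG14375, chr3R:13389059-13395197), a nutrient-dependent peptide that promotes insulin secretion, stood at 23.0 CPM in the male NaAsO2 library and 42.4 CPM in the male control (-0.88, -1.01 to -0.75), and at 42.3 CPM in the female NaAsO2 library and 41.5 CPM in the female control (0.03, -0.06 to 0.11).

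*ITP*, *Dh44* and *Dh31* are known as regulators of ion and water balance, and *ITP* and *Dh44* were lower in NaAsO2 males. *ITP* (Dmel_CG13586, chr2R:24537421-24558961) stood at 36.5 CPM in the male NaAsO2 library and 204 CPM in the male control (-2.48, -2.57 to -2.39), and at 204 CPM in the female NaAsO2 library and 161 CPM in the female control (0.34, 0.30 to 0.38). At least 10 *ITP* UMIs were found in 3 nuclei of NaAsO2 males and 44 of control males, but in 34 of NaAsO2 females and 31 of control females. *Dh44* (Dmel_CG8348, chr3R:9638182-9650706), the relative of corticotropin-releasing factor, stood at 66.95 CPM in the male NaAsO2 library and 127 CPM in the male control (-0.93, -1.0 to -0.85), and at 110 CPM in the female NaAsO2 library and 138 CPM in the female control (-0.32, -0.38 to -0.27). *Dh31* (Dmel_CG13094, chr2L:8491868-8506845), the calcitonin-like diuretic hormone, did not pass 1.5-fold in either sex, at 212 CPM in the male NaAsO2 library and 292 CPM in the male control (-0.46, -0.51 to -0.42), and at 195 CPM in the female NaAsO2 library and 248 CPM in the female control (-0.35, -0.39 to -0.31).

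Stress, motor and reproductive peptides were also among the 21. *Crz* (Dmel_CG3302, chr3R:14314854-14315716), corazonin, a stress peptide related to gonadotropin-releasing hormone, stood at 109.7 CPM in the male NaAsO2 library and 261 CPM in the male control (-1.25, -1.30 to -1.19), and at 112 CPM in the female NaAsO2 library and 138 CPM in the female control (-0.30, -0.36 to -0.25). *Proc* (Dmel_CG7105, chr2L:7864642-7871432), proctolin, which acts on muscle, stood at 60.4 CPM in the male NaAsO2 library and 112 CPM in the male control (-0.90, -0.97 to -0.82), and at 142 CPM in the female NaAsO2 library and 138 CPM in the female control (0.04, -0.01 to 0.09). The *Proc* call was the least firm of these, since it was lost, among other settings, without the 5% of nuclei with the most UMIs and without the unresolved cluster. *natalisin* (Dmel_CG34388, chr3R:14418593-14421865), known for its role in mating, had 107 UMIs in NaAsO2 males and 344 in control males (-1.73, -2.06 to -1.41), and 241 in NaAsO2 females and 257 in control females (0.14, -0.12 to 0.40). The female libraries hardly differed in *natalisin*, nor did they in the glycoprotein hormone subunits. *Gpb5* (Dmel_CG40041, chr2L:23311700-23312464) stood at 30.9 CPM in the male NaAsO2 library and 57.9 CPM in the male control (-0.90, -1.01 to -0.80), and at 56.2 CPM in the female NaAsO2 library and 51.4 CPM in the female control (0.13, 0.05 to 0.21). Its partner *Gpa2* (Dmel_CG17878), placed on an unlocalised scaffold, followed it, at 3.91 CPM in the male NaAsO2 library and 7.64 CPM in the male control (-0.97, -1.28 to -0.66), and at 8.22 CPM in the female NaAsO2 library and 8.28 CPM in the female control (-0.01, -0.21 to 0.19). *Akh* (Dmel_CG1171, chr3L:4141467-4142070) had 15 UMIs in NaAsO2 males and 174 in control males (-3.58, -4.45 to -2.82), but 142 of the control UMIs came from 1 nucleus, so its male ratio describes that nucleus.

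The remaining members were flat or too sparse. *Nplp1* (Dmel_CG3441, chr2R:25032377-25040377), a precursor that is broadly expressed here, stood at 190.1 CPM in the male NaAsO2 library and 168 CPM in the male control (0.18, 0.13 to 0.23), and at 199 CPM in the female NaAsO2 library and 206 CPM in the female control (-0.05, -0.09 to -0.01). *Tk*, *FMRFa* and *amn*, the tachykinin, FMRFamide and amnesiac precursors, had log2 ratios between -0.17 and 0.27 in males and between -0.03 and 0.22 in females. *CCAP*, the crustacean cardioactive peptide precursor, stood at -0.37 in males and -0.41 in females, but its UMIs came from few nuclei, and without the highest nucleus of each library the ratios were 1.97 and -1.65. *CNMa* had 14 UMIs in NaAsO2 males, 55 in control males, 15 in NaAsO2 females and 83 in control females, and *RYa* had 6 in NaAsO2 males, 27 in control males, 45 in NaAsO2 females and 39 in control females. Both were under the minimum for a ratio.

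The male difference was seen in the number of peptide-rich nuclei as well as in the sums. After thinning to equal depth, 10.4% of NaAsO2 male nuclei (1043 of 10000; 9.84% to 11.1%) and 19.8% of control male nuclei (2466 of 12478; 19.1% to 20.5%) were rich in at least 1 member. The shares were 18.5% in NaAsO2 females (3384 of 18319) and 17.2% in control females (3006 of 17470). Without *sNPF* they were 6.06% in NaAsO2 males and 12.4% in control males, and 9.92% in NaAsO2 females and 9.91% in control females. A member was compared where both libraries together held at least 20 rich nuclei. In males 21 members did, and the share of rich nuclei was lower for all 21 of them, each with a counting interval below 0 on the log2 scale (31.5% of 1728 genes were lower in this way, and 25.2% were higher). The log2 ratios of these shares ran from -4.49 for *Ilp5* to -0.53 for *Dh31*, with a median of -1.36. In females only *Mip* (-0.73, -1.32 to -0.16) had an interval below 0 and only *sNPF* (0.20, 0.10 to 0.30) one above it, of 23 members (11.2% and 17.4% of 2052 genes).

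**Figure D5:**
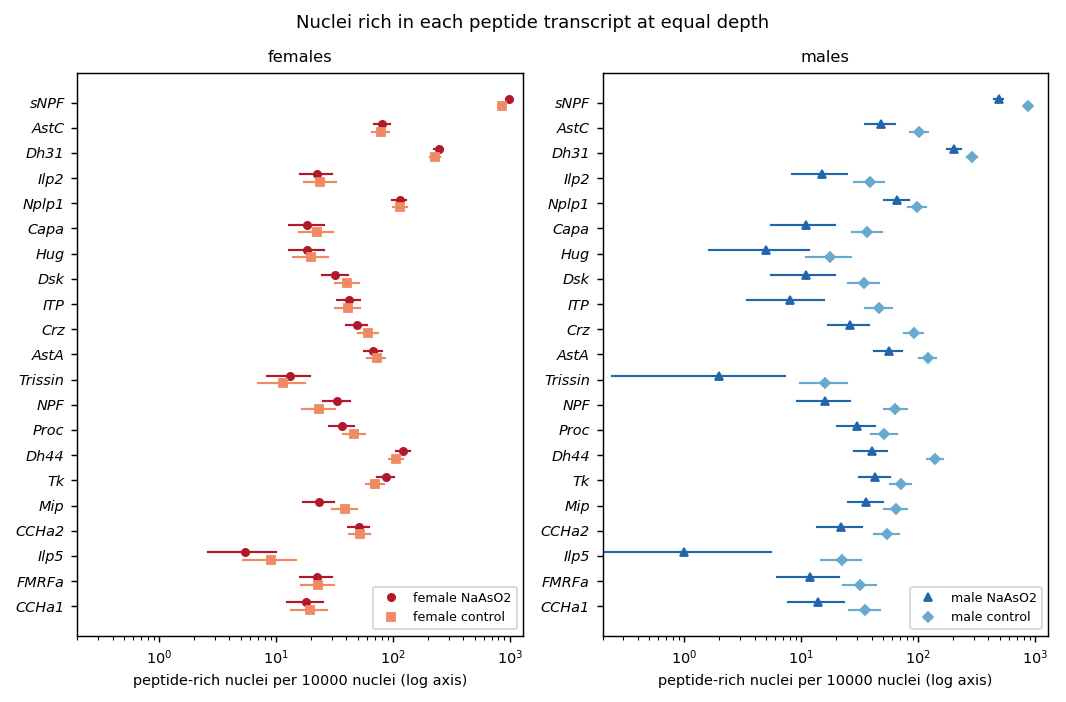
Nuclei rich in each member per 10000 nuclei (log axis), after thinning every nucleus to 1000 UMIs, in females (left) and males (right), with exact binomial 95% intervals. All 21 members lie lower in NaAsO2 males than in control males, and in females only *Mip* (lower) and *sNPF* (higher) have a ratio whose interval is clear of 0.

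*Dh31*, *Nplp1*, *Tk* and *FMRFa*, which stayed within 1.5-fold in CPM, were among the 21, with rich nuclei at 202 per 10000 in NaAsO2 males and 291 in control males for *Dh31*, and at 43 and 71.3 for *Tk*. *Dh44*-rich nuclei numbered 40 per 10000 in NaAsO2 males and 140.2 in control males (-1.81, -2.34 to -1.31). The difference lay in the high-count nuclei: the part of each sum from nuclei with at least 10 UMIs was at least 1.5-fold lower for 23 of 25 members with such nuclei in both libraries (median -1.60), where 18.7% of 2482 genes were lower and 58.9% higher. The part from all other nuclei was lower for 8 of 31 members (22.2% of 8578 genes) and higher for 5 (2.68%), with a median of -0.11. Several checks bear on the male NaAsO2 library itself. With control nuclei restricted to those with as many UMIs as its lowest nucleus, 18 of 19 members kept an interval below 0 (not *Tk*). In neuron-like clusters 18 of 20 did (not *Proc* and *Tk*), without the unresolved cluster 20 of 21 (not *Proc*), and without the 5% of nuclei with the most UMIs 18 of 20 (not *Hug* and *Proc*). The share of all genes with such an interval was 31.5% over all thinned nuclei and was not computed within these subsets. By CPM, 30.3% of all genes were lower in neuron-like clusters and 32.6% without the unresolved cluster, against 22.8% over all nuclei. All these checks use the same 2 libraries, and what they share cannot be told apart from the treatment.

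The members were also set side by side between the sexes without arsenic. Control females were higher for *AstC*, *Trissin*, *Ilp3* and *Ilp7* (4 of 32 members, where 2.37% of 8835 genes were) and lower for 11 members (where 12.3% were), and the median log2 ratio was -0.14 over the members and -0.14 over all genes. Without scaling for depth 7 were higher and 5 lower, where 10.78% and 4.799% of all genes were. *NPF* and *Capa* were the abundant genes furthest apart. *NPF* stood at 59.3 CPM in control females and 355 CPM in control males (-2.58, -2.64 to -2.53), and *NPF*-rich nuclei at 23.5 and 64.1 per 10000. *Capa* stood at 97.1 CPM in control females and 585 CPM in control males (-2.59, -2.64 to -2.55, or -2.14 without the highest nucleus of each library). *Ilp3* was at 15.2 CPM in control females and 4.81 CPM in control males (1.66, 1.41 to 1.91). *AstC*, *Trissin* and *Hug* lost their calls without the highest nucleus. Of 23 members with enough rich nuclei, 11 had a lower share in control females beyond the counting interval and 0 a higher one (22.5% and 31.3% of 1941 genes). The male comparison uses this male control library, whose *NPF* and *Capa* levels were the highest of the 4.

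A list of 18 genes that make and release peptides was set beside the members. In females none passed 1.5-fold in either direction (median log2 ratio -0.07; 4.89% of all genes were higher and 0.717% lower). In males 4 of 18 were lower, a share like the 22.8% of all genes, and none higher (median -0.17): *7B2*, a chaperone of the convertase encoded by *amon*, at 842.6 CPM in NaAsO2 males and 1509.0 CPM in control males (-0.84, -0.86 to -0.82), *dimm* (-0.70, -1.05 to -0.37), *Nep2*, a neprilysin peptidase (-0.64, -0.84 to -0.44), and *Phm*, the amidating enzyme (-0.61, -0.68 to -0.54). *amon* itself stood at 489.8 CPM in NaAsO2 males and 498.8 CPM in control males. The other 4 peptide genes, *Orcokinin*, *SIFa*, *Pdf* and *Ms*, had log2 ratios between -2.21 and -1.38 in females and between -3.32 and -1.77 in males. They were set apart from the members with these values known, so their direction is a description. Of the 30 members measured in both sexes, *Mip* and *Lk* were lower in both, and the share of all genes lower in both was not counted. *CNMa*, under the minimum of UMIs, also had ratios below 0 in both (-2.23, -3.13 to -1.43 in females and -2.02, -2.98 to -1.15 in males).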

How the data were processed

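Nuclei from 10 pooled brains per group were sequenced as 1 library per sex and treatment (4 libraries). The authors aligned reads to the *D. melanogaster* release 6 genome and deposited UMI counts per gene and nucleus without normalization. Cell Ranger 3.1 and Seurat 3 are named in the submitters' processing notes and 7.0.1 in the matrix headers. The annotation version is not given in the sources used here. Symbols and coordinates came from RefSeq, which matched all 35 members. *Dh31* overlaps *Bace* and *Ilp2* overlaps *CG32052* on the same strand. *sNPF*, *Tk*, *Dh44*, *CCAP*, *Dsk*, *Hug*, *Ilp3*, *Ilp5*, *Ilp6*, *Ilp7*, *ITP*, *Lk*, *natalisin* and *amn* overlap a gene on the other strand, and whether counting used strand is not given in the sources used here.

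Counts were summed per library and divided by the library total (Python 3.11.15, NumPy 2.4.6, SciPy 1.17.1, pandas 2.3.3). CPM intervals are exact Poisson, ratio intervals are exact conditional binomial, and shares have exact binomial intervals. The authors tested single nuclei with MAST. That test was not used, because nuclei of 1 library are not replicates. Nuclei were clustered on Pearson residuals of 3000 variable genes without the peptide, *roX* and *Yp* genes (theta 100, 10 principal components, 20 neighbours, Louvain resolution 1, scikit-learn 1.9.0, igraph 0.11.9). A neuron-like cluster had a neuronal marker ratio of at least 0.8 and a glial one below 0.8, a glia-like one at least 3 glial markers raised 2-fold, and a fat body-like one at least 5 of its markers. Doublets were not removed, and no caller was run, but 1 alternative left out the 5% of nuclei with the most UMIs in each library. Thinning drew 1000 UMIs per nucleus and left out 0% to 27.7% of the nuclei as shallower.

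Full values were given for members past 1.5-fold in either sex, the 8 with the most UMIs and *Ilp2*, *Ilp3* and *Ilp5*. Members and lists were chosen with earlier results of these data known. The sums and intervals were tested on simulated Poisson counts, the model that the intervals assume. Those counts held no clumping of UMIs in single nuclei, so the test cannot show how the intervals behave under such clumping. Figures were drawn with matplotlib 3.10.9.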

Additional observations from a re-analysis of the deposited data

Results flagged for a closer look

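For 7 members the log2 ratio of NaAsO2 over control was above 0 in females and below 0 in males, with both counting intervals clear of 0 and a difference of at least 1.5-fold in at least 1 sex. They were 7 of 30 members measured in both sexes (23.3%), and 1005 of 8507 genes (11.8%) met the same rule, with a median over all genes of 0.08 in females and -0.22 in males. Relative to the median gene, the female ratios of *sNPF* and *Gpb5* were 0.0132 and 0.0453. With 1 library per sex and treatment, the difference between the sexes was not tested. The female ratio minus the male ratio was 4.04 for *NPF*, 2.82 for *ITP*, 2.64 for *Dsk*, 2.23 for *Trissin*, 2.03 for *AstC*, 1.03 for *Gpb5* and 0.72 for *sNPF*. In *Trissin* and *AstC* the larger part of this came from the female ratio (1.95 and 1.64), and in *NPF*, *ITP*, *Dsk*, *Gpb5* and *sNPF* from the male ratio (-3.57, -2.48, -2.15, -0.90 and -0.63).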

How the results depend on the processing

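Each comparison was recomputed under other scalings, thresholds, nucleus filters and clusterings. 4 alternatives were chosen after seeing the data, namely leaving out each gene's highest nucleus, counting at most 10 UMIs of a gene per nucleus, leaving out the unresolved cluster, and the neuron-like clusters of the 30-component clustering, as was the share without *sNPF*. The values given below are those that moved, the cause was not tested, and the direction of the male median and the lower male calls of *Ilp5*, *NPF*, *Capa* and *ITP* held under every alternative run. No paired analysis was possible because the labels give no replicate numbers.

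The median log2 ratio in males was -0.37 with at most 10 UMIs per nucleus, -0.31 without depth scaling, -0.71 centred on the median gene, -1.11 without the highest nucleus, -1.16 without the 5% of nuclei with the most UMIs, -1.24 without the unresolved cluster, -1.33 in neuron-like clusters and -1.27 in those of 30 components. In females it was -0.22 with nuclei scaled to 1 total, -0.62 without depth scaling, -0.15 in neuron-like clusters and -0.0835 without the 5% of nuclei with the most UMIs. Between control sexes it was 0.17 without depth scaling.

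Shares of all genes under the same setting are given in brackets. Members lower in males numbered 12 with at most 10 UMIs per nucleus (22.25%) and 12 without depth scaling (4.09%). Members higher in males numbered 0 at 2-fold (0.7457%), with a minimum of 500 UMIs (1.78%) and without the unresolved cluster (2.161%). They also numbered 0 in neuron-like clusters (1.99%) and in those of 30 components (2.263%). They numbered 1 with nuclei scaled to 1 total (2.68%), with nuclei of at least 1000 UMIs (3.014%) and without the top 5% (2.578%). They also numbered 1 in nuclei as deep as the lowest male NaAsO2 nucleus (3.312%). They numbered 4 with at most 10 UMIs per nucleus (2.796%) and without depth scaling (33.79%). In females, members higher numbered 1 with at most 10 UMIs per nucleus (4.33%) or without the unresolved cluster (4.95%). They numbered 5 in neuron-like clusters (2.30%) and 8 in nuclei as deep as the lowest male NaAsO2 nucleus (7.21%). Members lower in females numbered 19 without depth scaling (42.3%) and 5 without the unresolved cluster (0.799%). They numbered 4 in neuron-like clusters (0.798%), with no minimum of UMIs (6.90%) and without the highest nucleus (0.784%). In control females over males, members higher numbered 1 at 2-fold (0.5659%) and with 1 total (2.762%). They numbered 2 in neuron-like clusters (2.58%) and without the top 5% (2.293%), and 7 without depth scaling (10.78%). Members lower numbered 4 at 2-fold (3.95%), 7 with at most 10 UMIs per nucleus (12.12%) and 5 without depth scaling (4.799%).

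The log2 ratio of nuclei rich in any member was -0.51 and -1.44 in males at 2 and 5 UMIs of 1000, -1.26 thinned to 500 and -0.73 without thinning, and 0.0147, 0.191 and, without thinning, -0.78 in females. At 2 UMIs, 82.5% of *Ilp5*-rich nuclei were *Ilp2*-rich and 40.8% of *Trissin*-rich nuclei *AstC*-rich. Neuron-like clusters held 85.7% of the members' UMIs with 30 components (75.9% of all UMIs), 67.6% at resolution 2 (71.3% of all UMIs), 67.1% without *sNPF* and 81.1% without the top 5%.

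Single genes changed direction as follows. In females, *Ilp3* was -0.30 with 1 total, -0.55 in neuron-like clusters, -0.54 without the top 5% and -0.60 without the unresolved cluster. In males, *Ilp3* was -0.0345 without the highest nucleus, *Hug* 0.59 with at most 10 UMIs per nucleus, and *Lk* 1.11 with at most 10 UMIs per nucleus, 0.0284 without depth scaling and 0.0665 in neuron-like clusters. Between control sexes, *Hug* was 0.49 with at most 10 UMIs per nucleus, 0.0283 with 1 total, 0.0298 in neuron-like clusters, 0.338 without the top 5% and 0.27 without the unresolved cluster, *Lk* 0.0136 and 0.159 and *Trissin* -0.11 and -0.50 with at most 10 UMIs per nucleus and in neuron-like clusters, and *AstC* -0.10 and *Dsk* 0.18 with at most 10 UMIs per nucleus.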
